A study of Mus musculus with 132 samples.

Results

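Hematopoietic progenitor cells (HPCs) that lacked the CTCF site next to the Runx1 P2 promoter were compared directly with HPCs that lacked the site next to the P1 promoter. RNA without poly(A) tails, and with it much nascent RNA, was sequenced, and the members of the comparison were 5 P2-CTCF-KO and 3 P1-CTCF-KO libraries, chosen by their sample labels. These are 8 of the 132 samples of the series and 8 of the 23 RNA-seq libraries in the count table. All were male E14-TG2a mouse embryonic stem cells (mESCs) of the 129/Ola strain, differentiated for 7 days in defined serum-free medium with BMP4, bFGF, Activin-A, SCF and VEGF added at successive stages, and sorted as CD41+ cells without CD45 or Ter119. The deletions were made in mESCs with CRISPR-Cas9, so every cell of a clone carried them from the start of differentiation. P2-CTCF-KO HPCs came from 3 clones, with clones D10.1 and D2.1 present as a first and a second library (D10.1-2 and D2.1-2) and clone E9.1 as a single library. P1-CTCF-KO HPCs came from clones E7.1, E7.2 and E9.1, 1 library each, and by their names E7.1 and E7.2 are sub-clones of a shared parent. The name E9.1 stands for a different clone in each genotype. The 4 wild-type HPC libraries (C6.1, C8.1, B9.3 and B9.3-2, from 3 clones) entered the same fit and are given as the background. P-values therefore measure the spread between libraries, some of which share a clone. The labels call every library a biological replicate, second libraries included.

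RUNX1 is a transcription factor required for blood cells to emerge from hemogenic endothelium, and later for megakaryocytes, the cells that shed platelets. The gene is transcribed from a distal promoter, P1, and a proximal promoter, P2, and P2 is the earlier of them to be used in the embryo. CTCF is a DNA-binding protein that, with cohesin, forms loops and boundaries of chromatin domains. The study deleted a CTCF site near each promoter to ask whether these boundaries matter for Runx1 regulation.

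The sequences below show where CTCF binds nearest to each promoter in 416B cells, a mouse myeloid progenitor line, since these are the elements that distinguish the genotypes. In mm9 Runx1 lies on the minus strand of chromosome 16, and the count table gives its span as chr16:92601710-92826319. The peak nearest to the P1 start (position 92826311) was chr16:92828270-92828500, centred 2.07 kb upstream in intergenic sequence. The peak nearest to the P2 start (position 92697573) was chr16:92698817-92699340, centred 1.5 kb upstream within an intron of the P1 transcript. Each line gives the plus strand of the 200 bases around the peak centre, chr16:92828285-92828484 for P1 and chr16:92698979-92699178 for P2, read from NCBIM37, which is mm9. Capitals mark the letters AGGNGGC, the centre of the CTCF recognition sequence, searched on both strands and chosen after these sequences had been seen.
P1 site: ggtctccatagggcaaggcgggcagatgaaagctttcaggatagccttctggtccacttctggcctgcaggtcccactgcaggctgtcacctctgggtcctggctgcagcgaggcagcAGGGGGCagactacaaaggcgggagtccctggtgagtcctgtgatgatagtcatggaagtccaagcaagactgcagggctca
P2 site: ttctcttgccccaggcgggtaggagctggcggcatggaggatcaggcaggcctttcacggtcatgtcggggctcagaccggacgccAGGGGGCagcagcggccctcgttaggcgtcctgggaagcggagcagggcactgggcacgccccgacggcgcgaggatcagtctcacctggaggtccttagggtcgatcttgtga
Each window held a single match, on the plus strand in both. Of the 44513 CTCF peaks of 416B cells, 14741 (33.1%) held the letters in a window of the same length. In wild-type HPCs, an ATAC-seq peak (open chromatin) at chr16:92828412-92828480 overlapped the CTCF peak near P1, and 0 overlapped the peak near P2.

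The 12 HPC libraries held 7805102 to 13513677 counts each. Ribosomal RNA and entries listed at several loci took 87.8% to 89.2% of them, which left 878966 to 1584401 counts for the other genes. At this depth 3 counts, taken as the floor, correspond to 0.211 to 0.596 CPM, the counts scaled to the effective size of each library, so genes near 1 CPM rest on few reads. The floor covers counting error alone, whereas the standard errors and the interval of log2 fold changes below also cover the spread between libraries. Of 25146 genes in the table, 7422 passed the filter on low counts in the HPC fit.

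No gene passed the threshold between P2-CTCF-KO and P1-CTCF-KO HPCs, set at a log2 fold change beyond 1 in either direction and an adjusted p under 0.05. Of the 7422 genes tested with edgeR's quasi-likelihood test, 0 (0%) were called, and the smallest adjusted p was 0.527. At an unadjusted p under 0.05, 650 genes (8.76%) were found, 379 higher and 271 lower in P2-CTCF-KO, and DESeq2 called 0 genes with 583 at that unadjusted level. The balance between directions was reversed in limma with the clone as a random block, with 163 higher, 547 lower and 0 called. The estimated correlation within clones was -0.158 there, so libraries of a clone were not discounted as replicates. Limma was not run without the block, so the reversal cannot be assigned to it. EdgeR on the summed libraries of each clone gave 401 higher and 490 lower, also with 0 called. Without library D2.1 of P2-CTCF-KO, edgeR again called 0 of 7181 genes (0%), with 564 at an unadjusted p under 0.05, and DESeq2 called 0 as well. The P2-CTCF-KO libraries then lay wholly above P1-CTCF-KO for 322 genes (4.48%) and wholly below for 220 (3.06%), beside 227 (3.06%) and 136 (1.83%) with D2.1.

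Leaving out library D10.1 of P2-CTCF-KO gave a different count. The remaining 7 knockout libraries yielded 259 called genes of 7336 (3.53%), 20 higher (0.273%) and 239 lower (3.26%) in P2-CTCF-KO, and DESeq2 called 397. In this fit the 4 P2-CTCF-KO libraries lay wholly above P1-CTCF-KO for 684 genes (9.32%) and wholly below for 842 (11.5%). Each of the other 11 HPC libraries, left out singly, gave 0 calls with edgeR. Leaving out both D10.1 and D2.1, which was chosen after seeing the data, gave 431 calls (6.1%), 79 higher (1.12%) and 352 lower (4.98%). Of the 259 genes, 245 were among the 431, which is 94.6% of the smaller and 56.8% of the larger set. Among the 239 genes that were lower without D10.1, D10.1 itself lay within or above the P1-CTCF-KO range for 232 and above all 3 P1-CTCF-KO libraries for 88. D10.1 and D10.1-2 share a clone, so the difference between those libraries is not one of genotype.

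**Figure D1:**
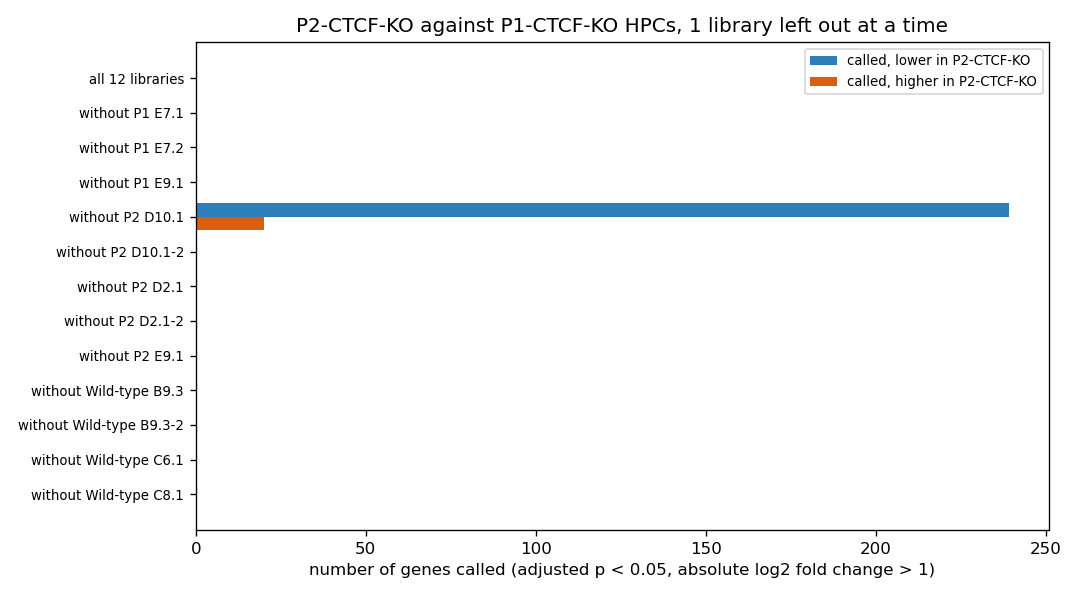
Number of genes called between P2-CTCF-KO and P1-CTCF-KO HPCs (x axis) in the fit of all 12 libraries and with each library left out singly (y axis). Bars show calls lower and higher in P2-CTCF-KO, and the fit without P2-CTCF-KO D10.1, with 239 and 20 calls, is the only one of those drawn with any.

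The P2-CTCF-KO libraries did not group together. In a principal component analysis of the 500 most variable genes, component 1 (46.4% of the variance) placed D10.1 (25.0), D2.1 (17.8), P1-CTCF-KO E9.1 (22.3), P1-CTCF-KO E7.1 (11.7) and wild-type B9.3 (25.9) on the positive side and the 7 other libraries on the negative side. Component 2 (31%) set D2.1 (39.0) apart from the rest, which lay between -23.3 and 11.4. There P1-CTCF-KO E7.1 (-23.3), E7.2 (-4.95) and E9.1 (-8.55) were negative, as were D10.1 (-10.1) and wild-type C6.1 (-7.14) and C8.1 (-15.4). D10.1-2 (0.155), D2.1-2 (9.23) and P2-CTCF-KO E9.1 (6.83) were positive, as were wild-type B9.3 (11.4) and B9.3-2 (2.79). The median absolute log2 difference over the tested genes was 0.293 to 0.665 for the 15 pairs of a P2-CTCF-KO with a P1-CTCF-KO library. It was 0.265 to 0.618 for the 10 pairs within P2-CTCF-KO and 0.386 to 0.431 for the 3 pairs within P1-CTCF-KO. The medians of these 3 sets of pairs were 0.490, 0.476 and 0.386. The libraries of a single clone were as far apart as others, at 0.457 for D10.1, 0.523 for D2.1 and 0.441 for wild-type B9.3.

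**Figure D2:**
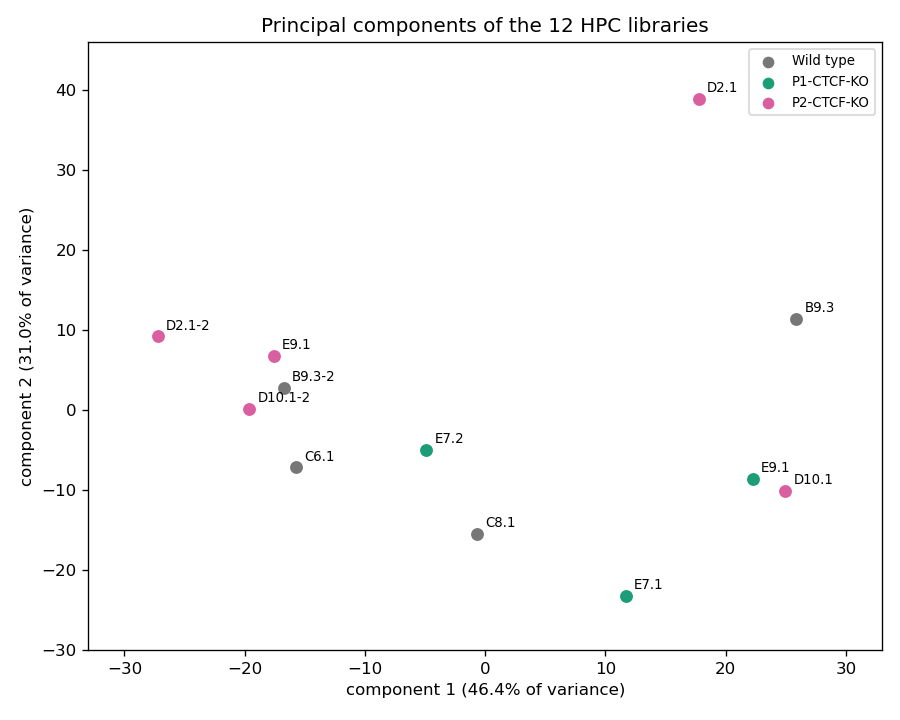
Principal components 1 and 2 of the 12 HPC libraries, from log2 CPM of the 500 most variable genes; each point is a library, coloured by genotype and named by clone. P2-CTCF-KO libraries lie at both ends of component 1 (25.0 for D10.1, -27.2 for D2.1-2), and D2.1 lies alone at 39.0 on component 2.

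Runx1 was transcribed in all 8 knockout libraries. In P1-CTCF-KO HPCs its level was 159 CPM in E7.1, 72.5 in E7.2 and 133 in E9.1. In P2-CTCF-KO HPCs it was 141 CPM in D10.1, 76.6 in D10.1-2, 53.6 in D2.1, 43.0 in D2.1-2 and 56.2 in E9.1. The values of D2.1, D2.1-2 and E9.1 were below every P1-CTCF-KO library, while D10.1 and D10.1-2 overlapped them. The wild-type libraries held 89.0, 71.4, 78.6 and 127 CPM, which overlapped both genotypes. The means were 74.0 ± 39.2 CPM (SD, n = 5) for P2-CTCF-KO and 122 ± 44.6 CPM (SD, n = 3) for P1-CTCF-KO, a ratio of 0.608. The log2 fold change was -0.72 with a standard error of 0.38 and a 95% interval from -1.53 to 0.10 (edgeR adjusted p = 0.527), and the exact 2-sided permutation test over the 8 libraries gave p = 0.196, where 0.0179 is the smallest value possible. Without D2.1 the ratio was 0.65 (exact permutation p = 0.257), and without D10.1 it was 0.471 (exact permutation p = 0.0571, smallest possible 0.0286). These permutations treat libraries that share a clone as separate units. With the first library of each clone alone the ratio was 0.685 (exact permutation p = 0.3, smallest possible 0.1). Runx1 passed the threshold in a single one of 29 alternatives, DESeq2 without D10.1, with a log2 fold change of -1.08 and an adjusted p of 0.0126. Against wild type the log2 fold change was -0.31 for P2-CTCF-KO and 0.41 for P1-CTCF-KO, each on the same wild-type libraries, with edgeR adjusted p = 1 and 0.91.

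Other genes of the Runx1 region showed no calls. Of 34 listed genes around and including Runx1 that are in the table, 18 were tested, and the median log2 fold change was 0.25, beside 0.05 over all genes tested. At an unadjusted p under 0.05, 2 were higher and 1 lower (5.11% and 3.65% of all genes were), and 1 gene had P2-CTCF-KO libraries all above P1-CTCF-KO (3.06% of all genes did). Without D2.1 the median fell to 0.06. The nearest tested genes on the lower-coordinate side were Mrps6, a mitochondrial ribosomal protein gene (chr16:92058580-92112472, log2 fold change 0.62 ± 0.44 SE), and Rcan1, a calcineurin inhibitor gene (chr16:92392195-92466414, 0.36 ± 0.38 SE). Mrps6 shares 29139 bp on the same strand with Slc5a3, so their reads cannot be told apart there. On the other side lay Dop1b (chr16:93712151-93810833), at -0.70 ± 0.36 SE, and Morc3, a chromatin-binding ATPase gene (chr16:93832365-93876318), at 0.47 ± 0.22 SE. All 4 had edgeR adjusted p-values of 0.527 to 0.694. Itsn1, an endocytic scaffold gene in the neighbouring interval, held 52.0, 19.9 and 40.6 CPM in P1-CTCF-KO and 54.8 (D10.1), 10.3 (D10.1-2), 15 (D2.1), 8.87 (D2.1-2) and 11.5 (E9.1) in P2-CTCF-KO. It had a log2 fold change of -0.90 ± 0.57 SE, and without D10.1 it was called lower at -1.71.

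**Figure D3:**
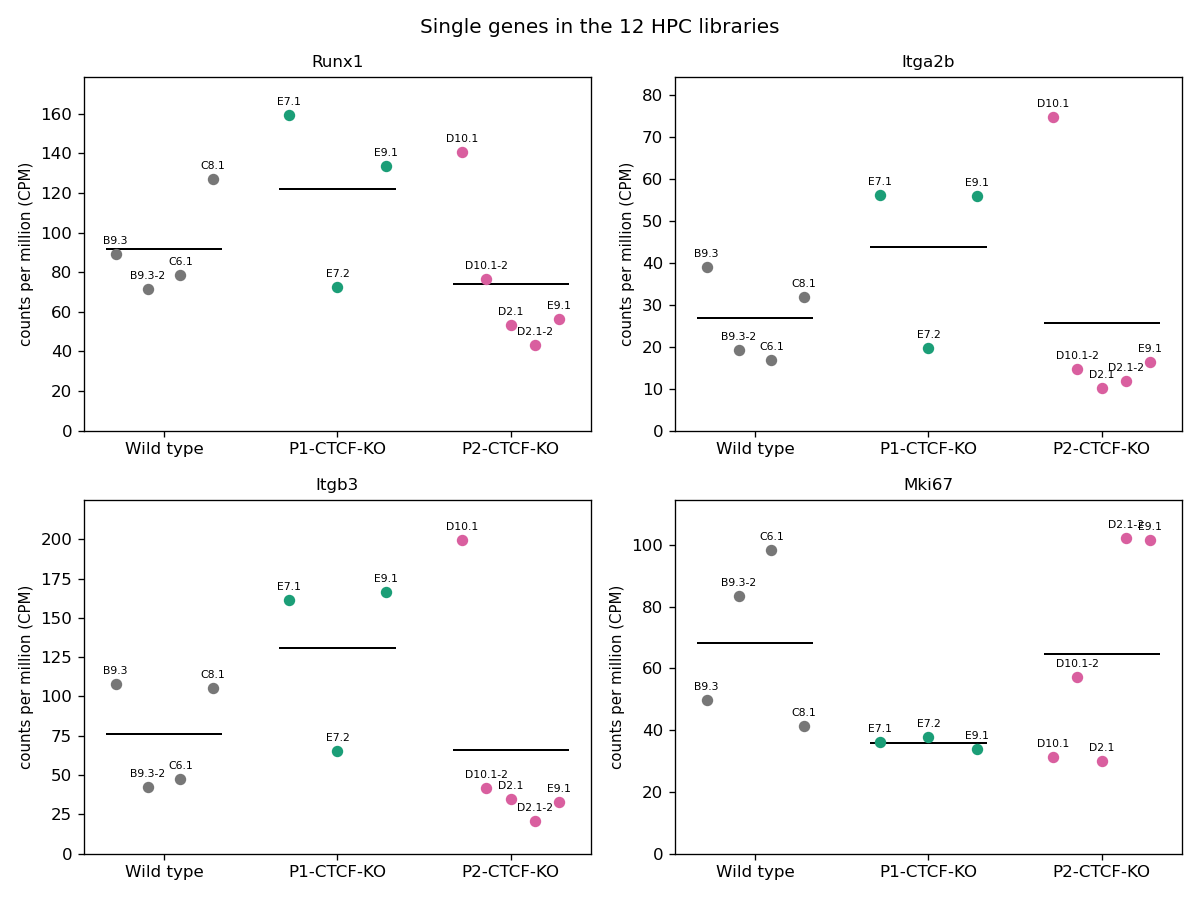
CPM (y axis, linear from 0) of Runx1, Itga2b, Itgb3 and Mki67 in wild-type (n = 4), P1-CTCF-KO (n = 3) and P2-CTCF-KO (n = 5) HPCs; each point is a library named by clone and each horizontal line a group mean. D10.1 lies with the higher P1-CTCF-KO libraries for Runx1, Itga2b and Itgb3 (141, 74.9 and 199 CPM), and the other P2-CTCF-KO libraries lie lower.

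The sorted population was checked against its markers. Itga2b, which encodes the CD41 antigen of the sort, was present in every library, at 56.2, 19.6 and 56.0 CPM in P1-CTCF-KO and at 74.9 (D10.1), 14.6 (D10.1-2), 10.15 (D2.1), 11.8 (D2.1-2) and 16.5 CPM (E9.1) in P2-CTCF-KO. The summed level of 10 HPC markers was 217 to 426 CPM in P1-CTCF-KO, 99.7 to 399 in P2-CTCF-KO and 169 to 336 in wild type. Ptprc, which encodes CD45, was between 0 and 0.976 CPM in all 12 libraries, near the floor. The mast cell markers Cpa3, Hdc and Ms4a2 were between 0 and 0.122 CPM, and the macrophage markers summed to at most 1.27 CPM. In bulk RNA, fewer cells of a type and less RNA per cell cannot be told apart.

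Megakaryocyte and platelet genes were high in D10.1 and low in the other P2-CTCF-KO libraries. Their summed level over 43 genes was 1322 CPM in P1-CTCF-KO E7.1, 586 in E7.2 and 1244 in E9.1. In P2-CTCF-KO it was 1336 in D10.1, 320 in D10.1-2, 259 in D2.1, 196 in D2.1-2 and 300.5 in E9.1. D10.1 was thus the highest of all 12 libraries and the other 4 P2-CTCF-KO libraries the lowest, below the wild-type values of 942, 366, 382 and 922 CPM. Of 38 tested members, 37 had a negative log2 fold change (3400 of 7422 over all genes tested), with a median of -1.10 beside 0.05 over all genes. Called genes numbered 0 and genes at an unadjusted p under 0.05 numbered 5, all lower, where 3.65% of all genes were. P2-CTCF-KO libraries lay wholly below P1-CTCF-KO for 2 of the 38, beside 1.83% of all genes. Without D2.1 the median was -0.88 with 0 called. Without D10.1 it was -2.09, and 24 of 38 were called lower (3.26% of all genes were), a count that rests on the absence of the highest library. With the first library of each clone alone (3 against 3) the median was -0.75 with 0 called.

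The same pattern was seen in single members. Itgb3, the partner of CD41 in the platelet fibrinogen receptor, held 161, 65.1 and 166 CPM in P1-CTCF-KO, against 199 (D10.1), 42.0 (D10.1-2), 34.5 (D2.1), 20.8 (D2.1-2) and 33.1 (E9.1) in P2-CTCF-KO. Its log2 fold change was -0.99 ± 0.66 SE. Thbs1, which encodes thrombospondin, held 245, 112 and 253 CPM in P1-CTCF-KO and 249 (D10.1), 33.2 (D10.1-2), 43.1 (D2.1), 28 (D2.1-2) and 56.4 (E9.1) in P2-CTCF-KO, a log2 fold change of -1.31 ± 0.71 SE. D10.1 was above all 3 P1-CTCF-KO libraries for Itgb3 and within their range for Thbs1, and the 4 other P2-CTCF-KO libraries were below all of them for both.

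The 4 lower P2-CTCF-KO libraries lay below P1-CTCF-KO in genes for platelet granules and signalling too. Pf4, a granule chemokine, held 6.35, 1.75 and 6.71 CPM in P1-CTCF-KO, 14.5 in D10.1 and 0.178 to 0.502 in the other P2-CTCF-KO libraries. Vwf, the von Willebrand factor gene, held 81.4, 28.7 and 79.8 CPM in P1-CTCF-KO, 82.1 in D10.1 and 6.97 to 15.8 in the others. Plek, a platelet signalling substrate, held 107, 58.8 and 117 CPM in P1-CTCF-KO, 121 in D10.1 and 14.2 to 29.0 in the others. D10.1 exceeded every P1-CTCF-KO library in Pf4, Vwf and Plek, and the edgeR adjusted p with all libraries was 0.527 for Vwf and Plek and higher for Pf4. F5 was among the 5 members at an unadjusted p under 0.05. F5, coagulation factor V, held 11.5, 2.68 and 10.2 CPM in P1-CTCF-KO and 6.96, 0.980, 0.775, 0.398 and 0.703 in P2-CTCF-KO, -2.03 ± 0.81 SE, the largest negative value of the list. D10.1 lay within the P1-CTCF-KO range of F5.

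**Figure D4:**
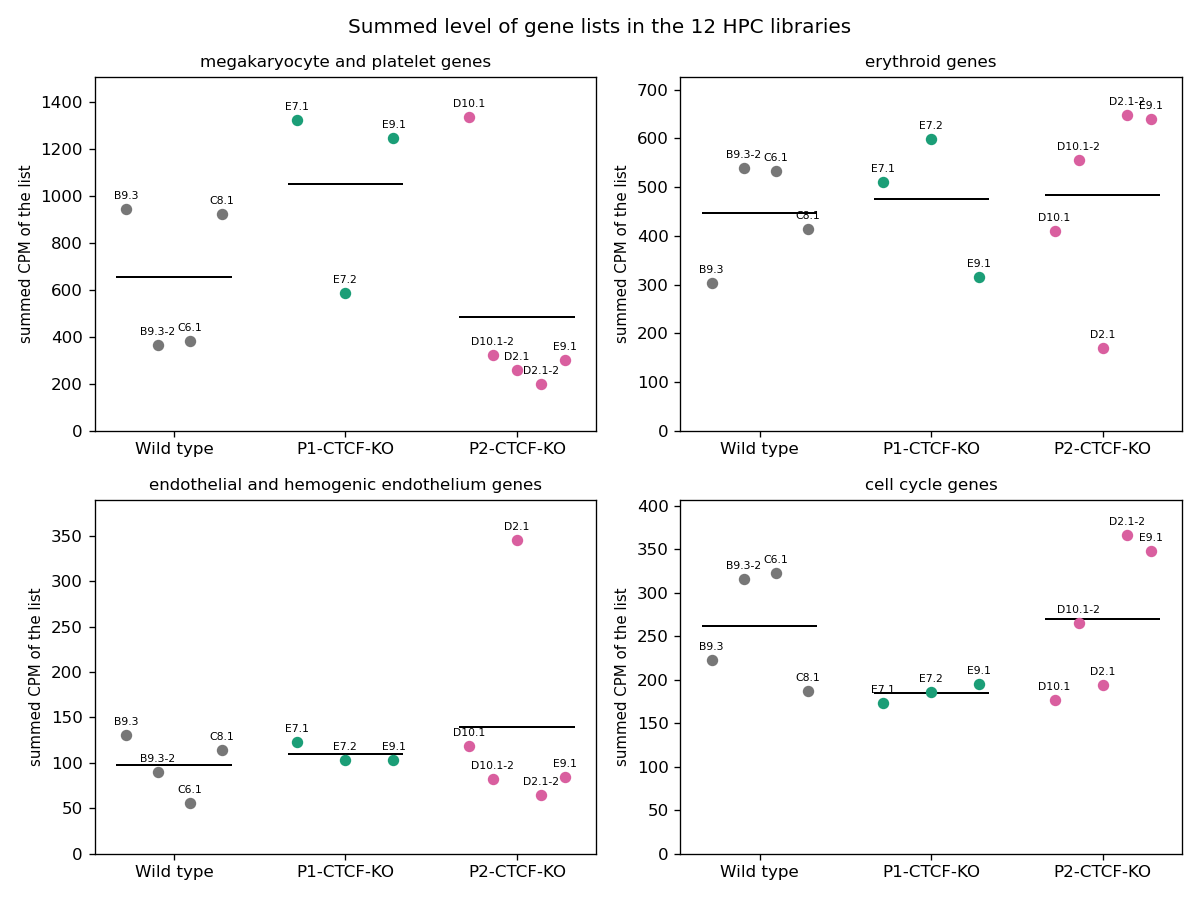
Summed CPM (y axis, linear from 0) of 4 gene lists in the 12 HPC libraries; each point is a library named by clone, and each horizontal line a group mean. Megakaryocyte and platelet genes reach 1336 CPM in D10.1 against 196 to 320 in the other P2-CTCF-KO libraries, endothelial genes reach 346 in D2.1, and cell cycle genes reach 366 in D2.1-2.

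The first and second libraries of a clone also differed in these lists. All 38 tested megakaryocyte and platelet genes were higher in D10.1 than in D10.1-2, with a median log2 ratio of 2.22, and all 38 were higher in wild-type B9.3 than in B9.3-2, with a median of 1.34. For D2.1 against D2.1-2 it was 22 of 38 with a median of 0.26. Erythroid genes went the other way, with medians of -0.91 (D10.1), -2.05 (D2.1) and -1.07 (B9.3). Cell cycle genes were higher in the second library as well, with medians of -0.72, -0.78 and -0.54 and with 4, 7 and 5 of 48 genes higher in the first. The 11 tested cardiac, smooth muscle and mesenchymal genes had the largest gaps, with medians of 3.72, 2.36 and 4.28, higher in the first library. P2-CTCF-KO holds 2 second libraries and P1-CTCF-KO none, and what sets second libraries apart is not given in the sources used here. A fit with a term for second libraries called 0 genes, with 344 at an unadjusted p under 0.05.

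Genes listed as RUNX1 targets in blood and as hematopoietic transcription factors had negative medians. Of 9 tested targets, 7 had a negative log2 fold change with a median of -0.78, and 0 were called. At an unadjusted p under 0.05, 3 were lower, where 3.65% of all genes were. P2-CTCF-KO libraries lay wholly below P1-CTCF-KO for 0 of the 9, beside 1.83% of all genes. Without D10.1 the median was -1.73 and 4 of 9 were called lower (3.26% of all genes were). Prkcq, a protein kinase C gene, held 44.9, 14.4 and 43.8 CPM in P1-CTCF-KO and 54.0 (D10.1), 6.95, 7.54, 4.38 and 9.45 (D10.1-2, D2.1, D2.1-2 and E9.1) in P2-CTCF-KO. Several targets, Itga2b and Pf4 among them, also belong to the megakaryocyte list. Of 33 tested transcription factor genes, 23 were negative, with a median of -0.43, 0 called and 7 lower at an unadjusted p under 0.05, beside 3.65% of all genes. Without D10.1 the median was -0.55 and 2 were called lower (3.26% of all genes were). Fli1, an ETS factor of endothelium and megakaryocytes, held 95.3, 52.4 and 72.2 CPM in P1-CTCF-KO and 68.4 (D10.1), 32.2 (D10.1-2), 46.2 (D2.1), 12.6 (D2.1-2) and 23.2 (E9.1) in P2-CTCF-KO, -1.004 ± 0.46 SE. Meis1, a TALE homeobox gene, held 76.4, 38.3 and 74.8 CPM against 79.0 (D10.1), 21.03, 22.1, 8.47 and 14.6, -1.12 ± 0.61 SE. The erythroid and stem cell factors Tal1, Gata1 and Lmo2 had log2 fold changes of -0.52, -0.47 and -0.53. Gfi1b, a transcriptional repressor active in megakaryocyte and erythroid cells, was at -0.79. None of the 10 positive members of the list is named here. Values of the list ran from -1.812 to 2.345, and from -1.673 to 1.118 without D2.1.

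Myeloid and pan-leukocyte genes followed the megakaryocyte list. Of 16 tested members, 15 had a negative log2 fold change, with a median of -0.86, 0 called and 2 lower at an unadjusted p under 0.05 (3.65% of all genes were). Without D10.1 the median was -1.65 with 8 called lower (3.26% of all genes were). The summed level was 186, 108 and 208 CPM in P1-CTCF-KO and 236 (D10.1), 59.2 (D10.1-2), 57.6 (D2.1), 35.9 (D2.1-2) and 57.9 (E9.1) in P2-CTCF-KO. The leading members were Dock8, Plcg2 and Inpp5d, signalling genes that platelets also use. Dock8 held 48.4, 25.2 and 48.7 CPM in P1-CTCF-KO and 47.7 in D10.1 beside 10.99 to 17.2 in the other P2-CTCF-KO libraries. Csf1r, the macrophage growth factor receptor, was at 0 to 0.413 CPM. Of 6 tested mast cell genes the median was -0.65 with 0 called.

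Erythroid genes overlapped between the genotypes. Of 32 tested members, 25 had a positive log2 fold change with a median of 0.25, 0 were called, and 1 gene was higher and 1 lower at an unadjusted p under 0.05 (5.11% and 3.65% of all genes were). The median was -0.06 with 14 of 32 positive when second libraries were left out, 0.05 without D2.1-2, 0.45 without D2.1 and 0.72 without P1-CTCF-KO E7.2. Summed levels were 511, 600 and 315 CPM in P1-CTCF-KO and 409 (D10.1), 555 (D10.1-2), 170 (D2.1), 648 (D2.1-2) and 639 (E9.1) in P2-CTCF-KO. D2.1 was the lowest of the 12 libraries. The embryonic globin gene Hbb-bh1 held 35.3, 65.7 and 18.8 CPM in P1-CTCF-KO and 25.3, 74.5, 11.8, 48.3 and 47.2 in P2-CTCF-KO, a log2 fold change of 0.05 ± 0.52 SE. Both genotypes held libraries at the low and at the high end of these values, so the groups overlapped.

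Library D2.1 carried endothelial and early transcripts. The summed level of endothelial and hemogenic endothelium genes was 346 CPM in D2.1, 64.6 to 119 in the other P2-CTCF-KO libraries, 103 to 123 in P1-CTCF-KO and 55.7 to 131 in wild type. Cdh5, the VE-cadherin gene, held 17.6 CPM in D2.1 and at most 3.42 in the other 11 libraries. Ptprm, a receptor phosphatase, held 63.6 CPM in D2.1 and at most 9.98 elsewhere. D2.1 was the highest of 12 libraries for 16 of the 23 tested members. The list's median log2 fold change was 0.999 with all libraries (17 of 23 positive, 0 called, 3 higher and 1 lower at an unadjusted p under 0.05) and -0.21 without D2.1 (9 of 22 positive, 0 called), so its direction turned on that library. Over all genes tested with all libraries, 5.11% were higher and 3.65% lower at that unadjusted level. Mef2c, which is shared with megakaryocytes, was lower in all P2-CTCF-KO libraries (10.9 to 24.0 CPM) than in P1-CTCF-KO (27.2 to 37.3 CPM), at -0.98 ± 0.35 SE and edgeR adjusted p = 0.527.

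Primitive streak genes summed to 5.78 CPM in D2.1 and to at most 0.903 in every other library, and none passed the filter. Eomes, an early mesoderm factor, was at 1.13 CPM in D2.1 and at most 0.0996 elsewhere. Lin28a, an RNA-binding protein gene of undifferentiated cells, was at 4.30 CPM in D2.1 and at most 0.397 elsewhere. Pou5f1, Nanog and Sox2 had 4, 3 and 3 counts in D2.1, and 0 counts in the 7 other knockout libraries. Mesenchymal genes showed another distribution. The collagen gene Col1a1 held 17.6 CPM in D10.1, 8.60 in D2.1, 15.4 in P1-CTCF-KO E9.1 and 50.1 in wild-type B9.3, but 0.089 to 3.18 in the other libraries. The 6 cardiac and mesenchymal markers summed to 30.3 CPM in D10.1, 17.4 in D2.1 and 0.535 to 5.33 in the other 3 P2-CTCF-KO libraries, and to 3.10 to 23.5 in P1-CTCF-KO; Myh6, of heart muscle, was at 0 in all 12. These markers were high in the library that was also highest in megakaryocyte genes, and their part in that result was not tested.

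Cell cycle genes leaned higher in P2-CTCF-KO, which holds 2 second libraries, and these genes were also higher in the second library of each of the 3 clones that has one. Of 48 tested members, 43 had a positive log2 fold change (4022 of 7422 over all genes), with a median of 0.60 beside 0.05 over all genes. At an unadjusted p under 0.05, 10 were higher and 0 lower, where 5.11% of all genes were higher, and 0 were called. For 4 of the 48, P2-CTCF-KO libraries lay wholly above P1-CTCF-KO, beside 3.06% of all genes. Summed levels were 173, 186 and 195 CPM in P1-CTCF-KO and 176 (D10.1), 265 (D10.1-2), 193 (D2.1), 366 (D2.1-2) and 348 (E9.1) in P2-CTCF-KO. Wild type held 222 (B9.3), 315 (B9.3-2), 322 (C6.1) and 187 CPM (C8.1). All lay within the P2-CTCF-KO range, but C8.1 alone lay within the P1-CTCF-KO range and the others above it. P2-CTCF-KO E9.1, at 348 CPM, is not a second library. The median was 0.67 without D2.1, 0.74 without D10.1 and 0.40 with the first library of each clone. Mki67, the proliferation antigen Ki-67, held 36.1, 37.8 and 33.8 CPM in P1-CTCF-KO, close to D10.1 (31.3) and D2.1 (29.9), while D10.1-2, D2.1-2 and E9.1 held 57.2, 102 and 102. Its log2 fold change was 0.85 ± 0.45 SE. Against wild type the Mki67 log2 fold change was -0.08 for P2-CTCF-KO and -0.93 for P1-CTCF-KO, neither past the threshold. Top2a, topoisomerase II alpha, was 12.9, 14.04 and 14.15 CPM against 11.7 (D10.1), 21.5, 16.3, 36.1 and 29.9, at 0.75 ± 0.33 SE. Against wild type Top2a was at 0.14 for P2-CTCF-KO and -0.61 for P1-CTCF-KO, again short of the threshold.

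Interferon response genes were set apart by a P1-CTCF-KO library. Their summed level was 46.5 CPM in P1-CTCF-KO E7.1 and 2.09 to 8.95 in the other 11 libraries. All 4 tested members had a negative log2 fold change with an unadjusted p under 0.05 (3.65% of all genes did), and 0 were called. Ifih1, an RNA sensor, held 9.13 CPM in E7.1, 0.413 in E7.2 and 0.732 in E9.1, beside 0.299 to 1.10 in P2-CTCF-KO, so E7.1 alone lay apart, and its log2 fold change was -2.16 ± 0.82 SE.

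Of the 10 genes with the smallest p in each direction, none past the threshold, 9 are given for each. As they were chosen by p, the lack of overlap noted for them is no added support. Over all genes tested, P2-CTCF-KO libraries lay wholly above P1-CTCF-KO for 3.06% and wholly below for 1.83%. Higher in P2-CTCF-KO, with libraries that did not overlap, were Ears2, Rpl23, Mastl, Rras2, Dnttip2, Rpa1, Ska3, Rnf187 and Uxs1. Mastl, a mitotic kinase, held 0.993, 1.24 and 1.10 CPM in P1-CTCF-KO and 1.46 (D10.1), 3.21, 2.54, 3.69 and 2.81 in P2-CTCF-KO, 1.28 ± 0.31 SE. Rpa1, which coats single-stranded DNA in replication, held 4.17, 3.41 and 3.29 CPM against 5.49, 5.26, 5.57, 6.57 and 7.44, 0.75 ± 0.20 SE. Ears2, a mitochondrial tRNA synthetase, lay at 0 to 0.199 CPM in P1-CTCF-KO, under the floor of each library, so no fold is given for it. In P2-CTCF-KO it lay at 0.458 to 1.89 CPM. The mitotic and replication genes of this set, Mastl, Ska3 and Rpa1, were also higher in all 4 wild-type libraries than the P1-CTCF-KO median. Rpl23 is a ribosomal protein gene with processed copies in the genome, which leaves its count uncertain.

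Lower in P2-CTCF-KO were Gm7972, Irf9, Abcg1, Dazap2, Trpc1, Rit1, Adar, Ankmy2 and Mtarc2, all but Mtarc2 without overlap. Of these, Irf9 and Adar belong to the interferon response, and for both E7.1 held the highest value of the 12 libraries. Irf9 rested on 3 or 4 counts in each P2-CTCF-KO library, near the floor. Abcg1, a cholesterol exporter, held 3.77, 1.96 and 2.07 CPM in P1-CTCF-KO and 1.46, 0.535, 0.986, 0.797 and 1.51 in P2-CTCF-KO, -1.26 ± 0.34 SE. Trpc1, a calcium channel, held 4.37, 2.58 and 2.44 CPM against 2.20 (D10.1), 0.624, 0.564, 0.299 and 0.502, -1.86 ± 0.53 SE. Rit1, a small GTPase, held 1.39, 2.06 and 2.44 CPM against 1.28, 1.25, 0.634, 0.996 and 0.904, -0.98 ± 0.29 SE. D10.1 was the highest P2-CTCF-KO library for Trpc1 and Rit1, and E9.1 for Abcg1.

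**Figure D5:**
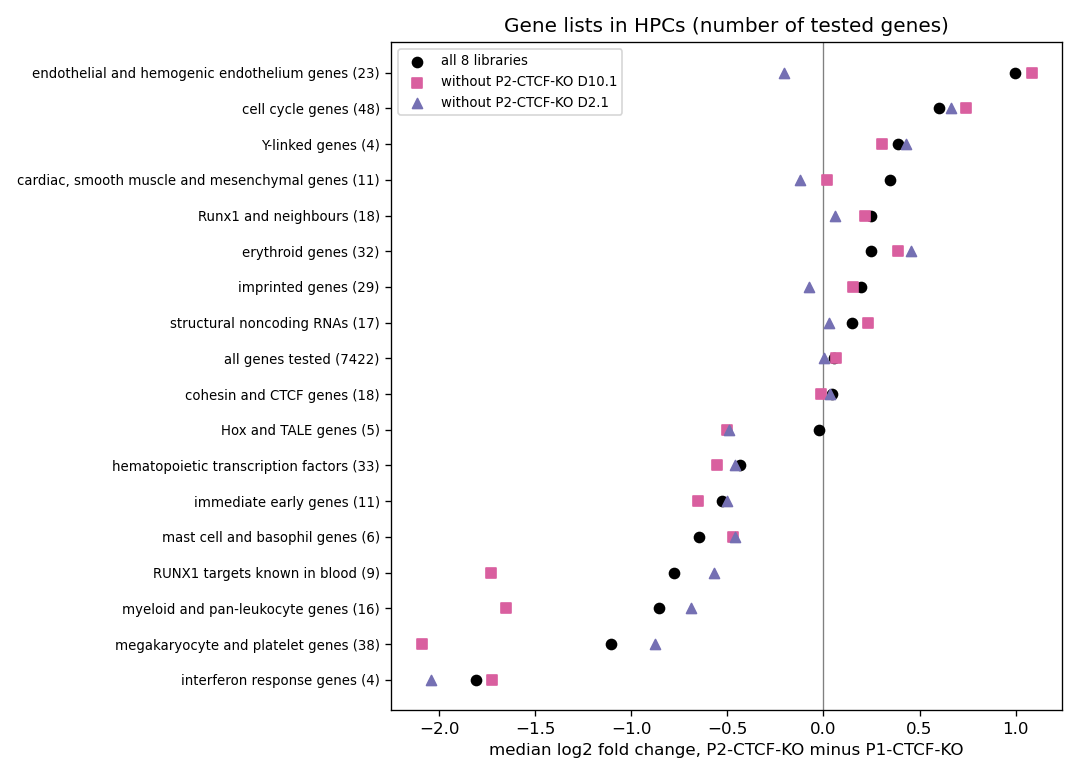
Median log2 fold change of P2-CTCF-KO minus P1-CTCF-KO HPCs (x axis) for each gene list with at least 4 tested genes (y axis, number tested in parentheses) with all 8 libraries, without D10.1 and without D2.1. Megakaryocyte genes move from -1.10 to -2.09 without D10.1, and endothelial genes from 0.999 to -0.21 without D2.1.

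Without D10.1, genes were named from those with the smallest adjusted p and no overlap, so the separation of their values repeats that choice. Functions are given as background, and their share over all genes was not counted. Among those called higher were Cdc6 and Nasp of DNA replication and histone supply, Cdk4 and Kif23 of the cell cycle, and Utp20, Rrp1b and Dnttip2 of ribosome assembly. Sema6a, Ears2, Rpl23 and Cdca7 were called higher too. Utp20 held 2.38, 4.85 and 5 CPM in P1-CTCF-KO and 8.20, 9.65, 8.67 and 9.65 in the 4 P2-CTCF-KO libraries, with D10.1 at 3.84. Xpo1, a nuclear export receptor, held 7.54, 10.8 and 10 CPM against 15.4, 17.5, 22.7 and 22.2, with D10.1 at 10.6. Among those called lower were Kat2b, Tgfb1, Rabgap1l, F5, Gnaz, Daam1, Cd47, Abcb4, Kcna3, Cnr2 and Inafm2. Tgfb1, the transforming growth factor stored in platelets, held 25.0, 14.9 and 27.6 CPM against 7.22, 7.47, 4.98 and 6.33, with D10.1 at 24.8. Rabgap1l held 52.6, 25.2 and 44.4 CPM against 12.8, 11.5, 9.36 and 12.2, with D10.1 at 36.8. D10.1 lay within the P1-CTCF-KO range in each of these 4 genes. Neat1, a nuclear noncoding RNA that was also called lower, held 24.8, 8.46 and 29.3 CPM against 3.92, 4.86, 2.19 and 3.62, with D10.1 at 51.4.

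The other lists gave no calls with all libraries. Cohesin and CTCF genes had a median log2 fold change of 0.04 over 18 tested members, and values from -0.56 to 0.80. Nipbl, the cohesin loader, held 21.8 to 29.0 CPM in P1-CTCF-KO and 18.8 to 24.8 in P2-CTCF-KO. Imprinted genes had a median of 0.19 over 29 members, and of -0.08 over 26 without D2.1. Airn, the noncoding RNA of the Igf2r imprinted cluster, held 12.1, 24.5 and 14.03 CPM in P1-CTCF-KO and 19.8, 31.5, 42.8, 38.6 and 30.9 in P2-CTCF-KO, 0.95 ± 0.30 SE. It overlaps Igf2r on the other strand by 28397 bp, and the strand setting of the counting is not given in the sources used here. Immediate early genes had a median of -0.53 over 11 members. Fosb held 12.1, 4.85 and 7.68 CPM against 6.22, 4.1, 2.18, 1.49 and 1.91, -1.35 ± 0.49 SE. Structural noncoding RNAs had a median of 0.15 over 17 members, Malat1 being highest in D10.1 at 1213 CPM. Hox and TALE genes had a median of -0.02 over 5 members and of -0.49 over 4 without D2.1, and small nucleolar RNA genes of -0.27 over 2. Replication-dependent histone genes had 0 entries under the symbols searched, and a single pluripotency gene was tested.

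The Y-linked genes checked the clones. Uty held 15.9, 1.96 and 14.9 CPM in P1-CTCF-KO HPCs (E7.1, E7.2 and E9.1) and 7.23 to 19.7 in P2-CTCF-KO. In mesoderm the E7.2 library was again the lowest, at 1.06 CPM beside 4.14 to 10.6 in the other 8 libraries. The 4 tested Y-linked genes had a median log2 fold change of 0.39 with 0 called, and of -0.04 without E7.2. Median log2 fold changes of the autosomes and the X chromosome lay between -0.01 and 0.11.

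Mesoderm of the same clones, sorted as Flk1+ cells at day 4, gave 0 calls of 8778 tested genes (0%) between P2-CTCF-KO and P1-CTCF-KO (n = 3 each), with 987 at an unadjusted p under 0.05 and a smallest adjusted p of 0.0934. DESeq2 called 90 genes, 21 higher and 69 lower, and leaving out wild-type B9.3, which enters the filter on low counts and the estimate of the spread, gave 37 calls of 9150 genes with edgeR. Runx1 held 6.68, 8.06 and 2.58 CPM in P1-CTCF-KO and 1.47 (D10.1), 5.50 (D2.1) and 4.89 (E9.1) in P2-CTCF-KO, -0.57 ± 0.57 SE. The smallest p belonged to Cbfa2t3, a blood corepressor, at 2.12, 1.32 and 2.01 CPM against 0.253, 0.340 and 0.484, -2.31 ± 0.31 SE (edgeR adjusted p = 0.0934). Ikzf2, a lymphoid zinc finger gene, held 2.70, 1.79 and 2.20 CPM against 0.71, 0.612 and 0.376. Snai1, a factor of mesoderm formation, held 1.04, 1.35 and 1.10 CPM against 5.22, 2.79 and 3.71, and Pdgfra, of paraxial and cardiac mesoderm, held 5.73, 5.85 and 5.11 against 12.2, 12.6 and 10.2. None of these 4 genes was past the threshold. They were picked from the genes with the smallest p of this contrast. That the 3 libraries of each genotype did not overlap for them is therefore no added support, and the share over all genes was not counted.

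Whether the genotype difference itself changed between the stages was tested in a fit of 21 libraries. Of 9170 genes, 0 (0%) were called for the interaction, with 627 at an unadjusted p under 0.05 and a smallest adjusted p of 0.0897, and DESeq2 called 5. For Runx1 the difference of differences, HPCs minus mesoderm, was -0.13 ± 0.73 SE (edgeR adjusted p = 0.985). Airn had the smallest p, with a log2 fold change of -2.48 in mesoderm and 0.95 in HPCs. Cbfa2t3 followed, with -2.31 and -0.37.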

How the data were processed

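Poly(A)-minus RNA-seq of sorted mouse HPCs and mesoderm was analysed from the deposited count table. Per the labels and the study's methods, the authors took the RNA without poly(A), made directional libraries, aligned reads with STAR to mm9, removed duplicates and counted reads over exons and introns with featureCounts, so the values are raw counts per gene. Ribosomal depletion is named in the labels, but the methods give it for undifferentiated mESCs and 416B cells alone. Intron reads make counts follow nascent RNA, and the high share of ribosomal entries limits depth. CTCF peaks in 416B cells and HPC ATAC-seq peaks were used for coordinates alone, not for a test: the authors called the CTCF peaks with MACS2 against input and the ATAC-seq peaks on merged reads.

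Counts were fitted with edgeR 4.0.16 (quasi-likelihood test, TMM scaling, filterByExpr with a minimum count of 10, Benjamini-Hochberg adjustment) in R 4.3.3, over 12 HPC, 9 mesoderm or, for the interaction, 21 libraries. Calls needed a log2 fold change beyond 1 in either direction and an adjusted p under 0.05. CPM are counts divided by the TMM-scaled library size and multiplied by 1e+06, not corrected for gene length, so levels are compared between libraries and not between genes. Standard errors were derived from the log2 fold change and its F statistic. Alternatives used DESeq2 1.42.0, limma 3.58.1, other scalings, no filter on low counts and each library left out. Runx1 was also tested by exact permutation of libraries. The procedure was tested on simulated data. For the HPC contrast with 12 libraries, it called 10.1% of the genes given a log2 change of 1, which is the threshold itself. Of those given a log2 change of 2 it called 67.7%. A count of 0 calls therefore does not show that the genotypes were alike.

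Genes were named by a rule: Runx1 and its 2 nearest tested neighbours on each side, up to 15 called genes without overlap in each direction, called list members, the 3 members of each list with the highest mean CPM, the Y-linked genes and, where under 10 genes were called in a direction, the 10 with the smallest p. Markers, and genes given to describe a library that stood apart, were added. The members and lists were chosen with earlier results of these data known, so no list is independent support. HPC and mesoderm libraries of the same clone pair by the clone named in the labels. Their deviations from the group means correlated with r between -0.07 and 0.19 over 9170 genes. No 2 libraries of a group agreed within sampling noise (chi-square per gene 5.78 to 104).

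Some genes that the rule names are not reported here.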

Additional observations from a re-analysis of the deposited data

Results flagged for a closer look

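In 17 of 106 groups of 4 or 5 libraries tested (16%), a single library lay far from the others, where chance gives about 1 in 20; many of the lists share genes. Library D10.1 was the high one in P2-CTCF-KO for the summed CPM of Runx1 and neighbours (308.3), RUNX1 targets (188.5), megakaryocyte and platelet genes (1336.3), myeloid genes (235.9), structural noncoding RNAs (1466.7), HPC markers (399.3) and megakaryocyte markers (309.8), and for Trpc1 (2.20 CPM). Library D2.1 was the high one in P2-CTCF-KO for endothelial genes (346.1), pluripotency genes (22.8), imprinted genes (437.6) and markers of undifferentiated cells (0.705). In wild type, B9.3 was high for cardiac, smooth muscle and mesenchymal genes (172.7) and their markers (75.6), imprinted genes (368.6) and markers of undifferentiated cells (0.0821, a single count), and low for Abcg1 (1.81 CPM).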

How the results depend on the processing

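The count of called HPC genes was 0 in 26 of 31 alternatives, DESeq2, other scalings, no filter on low counts and the fit of the knockout libraries alone among them. The exceptions all lacked library D10.1: leaving out single libraries gave 0 to 259 calls, with 259 for D10.1 alone, and settings chosen after seeing the data gave 224 without both D10.1 libraries, 431 without D10.1 and D2.1, 397 with DESeq2 without D10.1 and 276 in the knockout libraries alone without D10.1. The cause was not tested. The Runx1 log2 fold change was negative in all 29 alternatives, from -1.26 to -0.42, and passed the threshold with DESeq2 without D10.1 (-1.08), with adjusted p from 0.0126 to 0.88 over all of them. Rcan1 changed sign without D10.1 and D2.1 (-0.014). For mesoderm the count of 0 became 90 with DESeq2 and 267 without a filter on low counts, and leaving out single libraries gave 0 to 37, with 2 without P1-CTCF-KO E7.2 and 37 without wild-type B9.3. For the interaction it became 5 with DESeq2 and 1 without a filter, and leaving out single libraries gave 0 to 6, with 3 without P1-CTCF-KO mesoderm E7.2 and 6 without P2-CTCF-KO HPC D10.1. With the clone as a block, the pairing of HPC and mesoderm libraries gave 0 calls for the interaction, and in HPCs the clone as a random block in limma gave 0 calls. The block changed no other call. Of the 521 list medians under alternatives, 33 moved beyond the spread between replicates, and 43 values of single genes newly passed the threshold beside 639 that kept their side of it. Genes near the floor of 3 counts, 0.211 to 0.596 CPM, are limited by depth.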
